A study of Mus musculus with 8 samples.

Results

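The clustered protocadherin genes are 58 of the 49997 genes in a RefSeq table of the mouse assembly GRCm38.p6. They are every gene on chromosome 18 whose symbol starts with Pcdha (14 genes), Pcdhb (22 genes) or Pcdhg (22 genes), and 57 of them are annotated as protein-coding. The exception is the transcribed pseudogene Pcdhgb8. The 3 gene models Gm37013, Gm38666 and Gm38667, which join single Pcdha starts to the far Pcdhg end, carry other symbols and are not counted. With the genes come all deposited SMC1 peaks from 200 kb before the first gene to 200 kb after the last, chromosome 18 from 36730285 to 38041873. This window held 1 of 1684 peaks of the NMDA list and 14 of 12359 peaks of the resting list.

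SMC1 is a subunit of cohesin, the ring that holds and extrudes chromatin. It was mapped by chromatin immunoprecipitation and sequencing (ChIP-seq) in wild-type cortical neurons. The cells came from Swiss-Webster mice at embryonic day 16 and were used at day 13 in vitro. One group was bathed in 50 µM NMDA, an agonist of a calcium-permeable class of glutamate receptor, for 10 min and kept for 50 min in drug-free medium. The other was untreated and is called resting here. Each condition had 2 SMC1 ChIP samples and 2 input DNA samples, and the authors deposited 1 peak list per condition. Peak lists hold no expression, so the neuronal identity of the cultures was not checked against markers. The strain differs from the C57BL/6J reference assembly.

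Clustered protocadherins are cell-surface adhesion molecules that give neurons a molecular identity, used by neurites of the same cell to recognise and avoid each other. In the Pcdha and Pcdhg groups, each variable exon has its own promoter and is spliced to constant exons at the far end of the group, while each Pcdhb gene is encoded by its own exon. A neuron chooses few of the variable promoters. In mouse neurons that choice is known to involve CTCF bound at promoters and at enhancers beyond the constant exons, and cohesin, which joins distant sites by extruding chromatin loops. The C-type genes, Pcdhac1, Pcdhac2, Pcdhgc3, Pcdhgc4 and Pcdhgc5, lie nearest to the constant exons and are largely expressed without that random choice.

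SMC1 peaks at rest lay over the starts of 3 C-type genes, in a pair beyond the Pcdha genes, and in a dense run beyond the Pcdhg genes. Of the 3 at gene starts, the peak at Pcdhac2 was among the weakest of the resting list (percentile 3.71). That at Pcdhgc3 stood at percentile 56.4. The NMDA list held 1 peak in the window, at the strongest of the resting sites, 10.2 kb past the last Pcdhg gene. No peak of either list lay over a Pcdhb gene or over the start of a variable Pcdha or Pcdhg gene outside the C types. Strength below means the −log10 p that the authors gave each peak, added up over the 2 replicates. It depends on the depth of the libraries, which is unknown from these lists, so strength is ranked within each list. Values of both lists side by side cannot show whether binding changed.

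**Figure D1:**
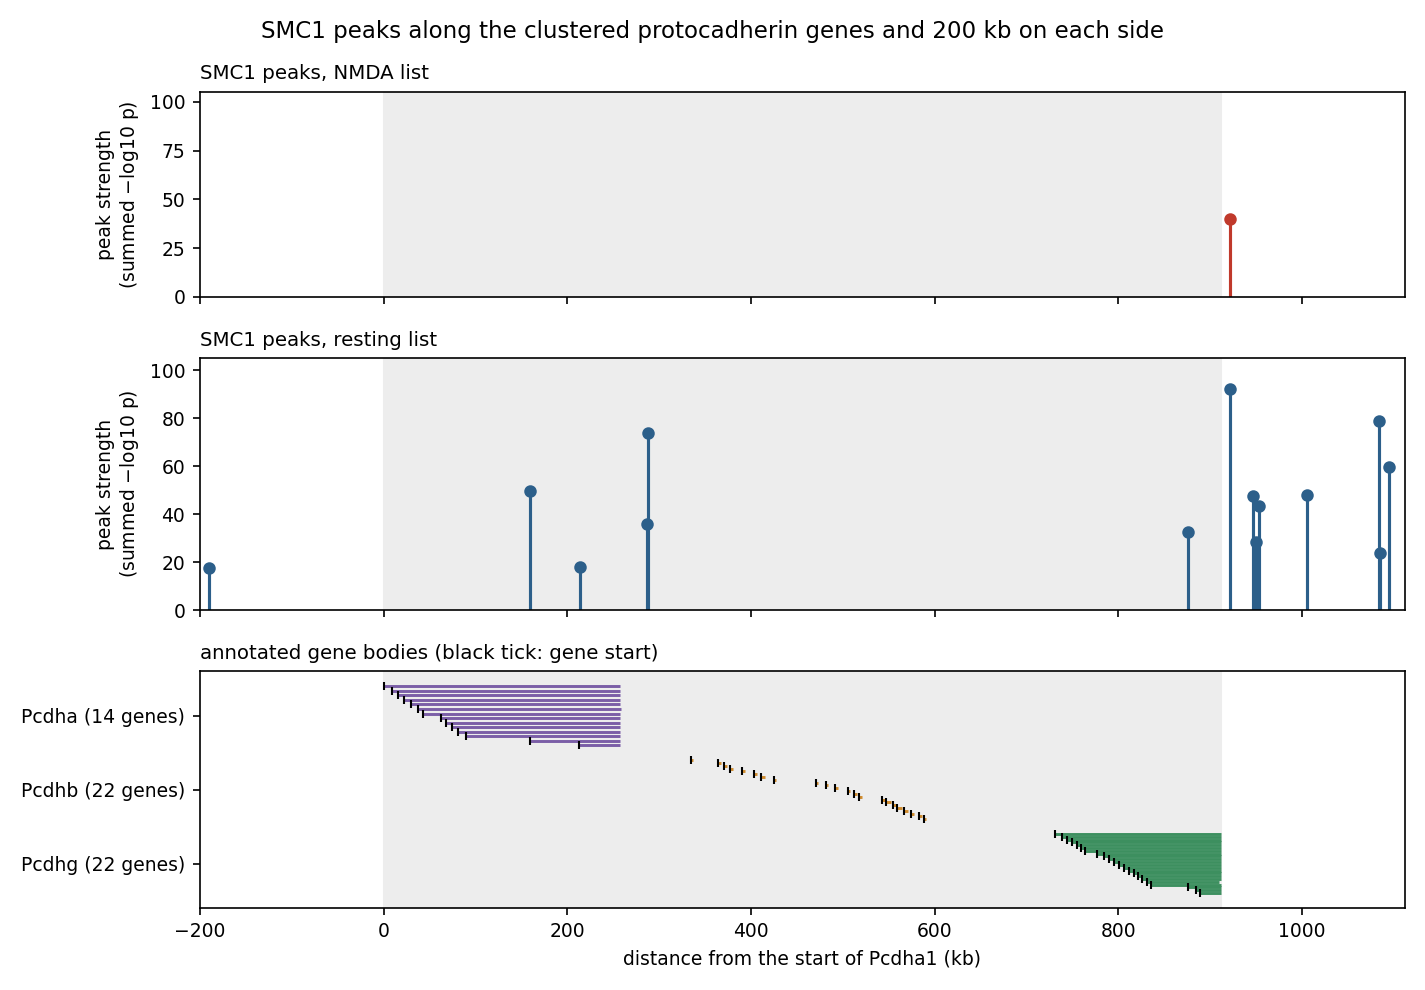
SMC1 peaks by distance from the start of Pcdha1 in kb, with strength (summed −log10 p) on the vertical axis, for the NMDA list (top) and the resting list (middle), above the annotated gene bodies (bottom). Grey marks the 912 kb from the first to the last gene, which held 0 NMDA peaks and 5 resting peaks, with 8 further resting peaks and the 1 NMDA peak to its right.

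The first question was where cohesin sits among the Pcdha genes, which include the most distant promoters from the constant exons. All 14 gene bodies ended within 1240 bp of each other, so a peak near that end lies inside many annotated genes at once. No NMDA peak lay in these bodies, and the nearest was 581 kb from Pcdha1. At rest, a peak at 37089725 to 37090178 covered the start of Pcdhac1, with a strength of 49.8 (23.5 and 26.3 in the replicate columns). It stood at percentile 83.5 of the resting list, and its summit was 172 bp before the annotated start. A weaker peak at 37143425 to 37144507 covered the start of Pcdhac2, which in mice directs the spacing of serotonergic axons. Its strength was 18.1 (7.99 and 10.1), at percentile 3.71 (3.75 and 22.6 by single columns), and its global irreproducible discovery rate (IDR) of 0.045 was close to 0.05, the highest in the list.

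The 12 other Pcdha genes had no peak over their starts. Their starts lay from 69.5 kb (Pcdha12) to 159 kb (Pcdha1) before the Pcdhac1 peak, which was the nearest resting peak for each of them. Because their bodies run on to the constant exons, 13 Pcdha bodies held the Pcdhac1 peak and 14 held the Pcdhac2 peak. Counts of genes with a peak therefore repeat the same few peaks.

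Beyond the constant exons of Pcdha lay the strongest resting peak within the span of the genes. It ran from 37217872 to 37219007, 29.0 kb past the last Pcdha end, with a strength of 73.8 (39.4 and 34.4 in the replicate columns) at percentile 95.02. A second resting peak at 37217185 to 37217705 was separated from it by 166 bp, with a strength of 35.9 (15.1 and 20.8) at percentile 63.9. The 2 summits were 882 bp apart. The NMDA list held no peak at either position, and its nearest one lay 633 kb from the stronger peak. The lists give no enhancer names, so whether this pair lies at the known Pcdha enhancer was not tested.

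The Pcdhb genes, 2.34 to 5.27 kb long, formed the part with no peak in either list. From body to nearest NMDA peak they had distances from 331 kb (Pcdhb22) to 585 kb (Pcdhb1). From body to nearest resting peak they ranged from 46.0 kb (Pcdhb1) to 290 kb (Pcdhb21), with a median of 210 kb. The nearest resting peak was the strong one past the Pcdha end for 20 of the 22, and the peak at Pcdhgc3 for Pcdhb21 and Pcdhb22. The interval between the Pcdhb and Pcdhg groups, which holds the general transcription factor gene Taf7 and the mitochondrial carrier gene Slc25a2, had no peak either.

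The resting peaks thus left a gap of 587 kb, from 37219007 to 37806043, with the starts of 41 genes, all 22 Pcdhb and 19 of 22 Pcdhg. Of the 12338 gaps between neighbouring resting peaks, 833 (6.75%) were at least as long, 31 of them among the 423 gaps of chromosome 18. The median gap was 87.9 kb, but gaps of 587 kb or more made up 45.5% of all gap length, so such a stretch was common along the genome. In the NMDA list the gap over the genes was 1503 kb, from 36349396 to 37852065, and 474 of 1663 gaps (28.5%) were at least as long, against a median of 643 kb. These gaps made up 77.1% of all gap length in the NMDA list.

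Among Pcdhg genes the only peak over a gene start was at Pcdhgc3, which promotes dendrite branching in mice. No NMDA peak lay inside any Pcdhg body. The resting peak ran from 37806043 to 37808303, and with 2261 bp was the widest of the window. Its strength was 32.7 (12.5 and 20.2) at percentile 56.4. By single columns it stood at percentiles 33.8 and 72.0, below and above the list median. Pcdhgc4, needed for neuronal survival in mice, started 6.78 kb past this peak, and Pcdhgc5 started 11.2 kb past it. The other 19 Pcdhg genes had starts from 40.5 kb (Pcdhga12) to 144 kb (Pcdhga1) before it, and their bodies all ran over it.

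**Figure D2:**
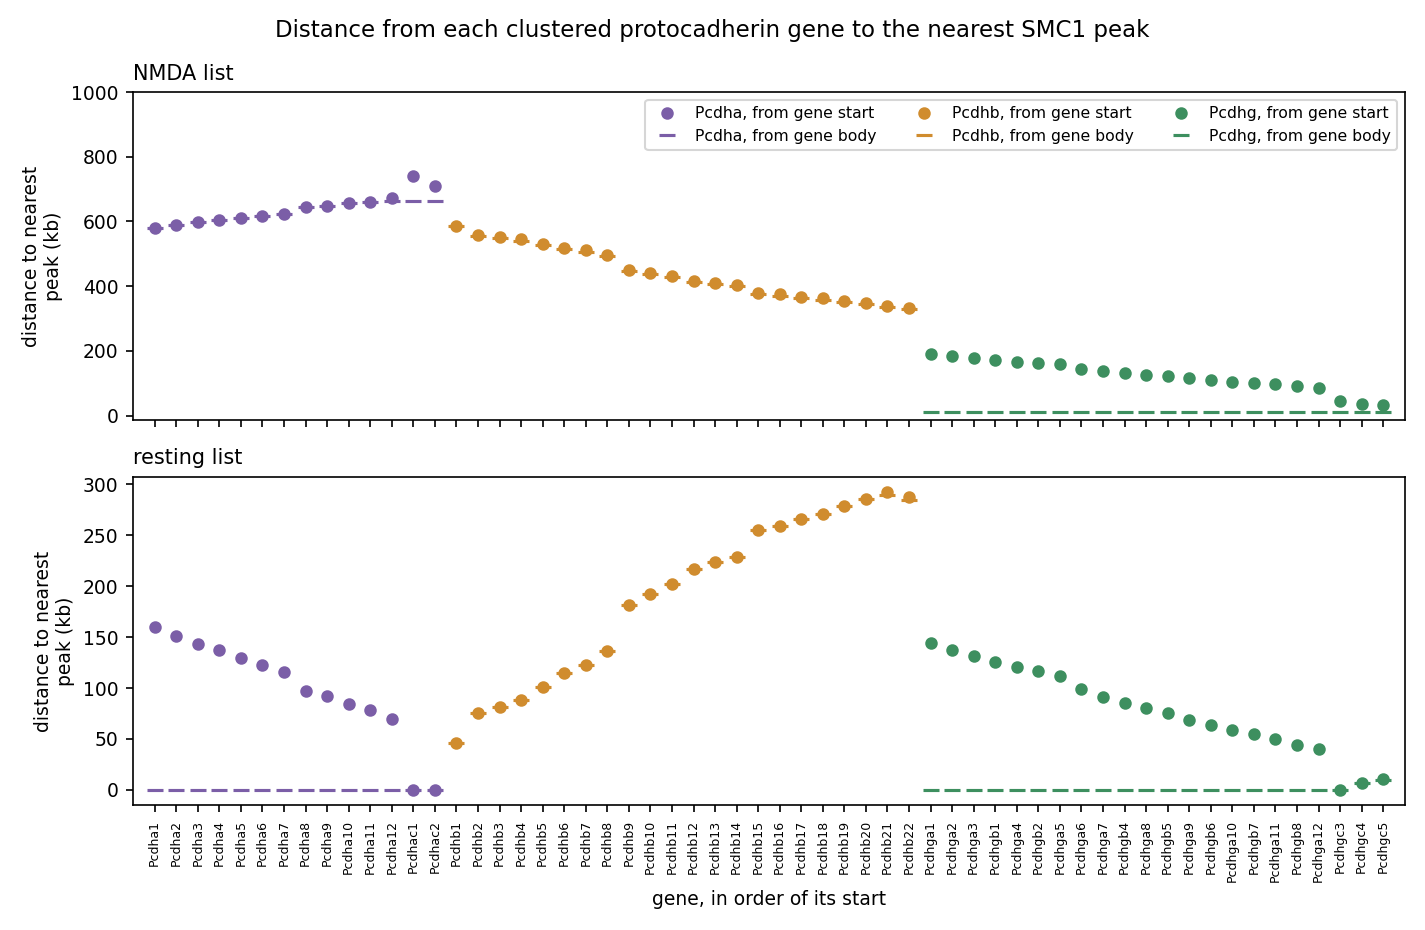
Distance in kb from each of the 58 genes, in order of their starts, to the nearest peak of the NMDA list (top) and of the resting list (bottom), from the gene start (circles) and from the nearest part of the gene body (dashes). At rest the starts of Pcdhac1, Pcdhac2 and Pcdhgc3 lie at 0, and Pcdhb distances reach 292 kb. In the NMDA list all Pcdhg bodies lie 10.2 to 11.6 kb from 1 peak.

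Beyond the Pcdhg constant exons, the flank on the side of the known Pcdhb and Pcdhg enhancers held 8 resting peaks and the 1 NMDA peak. The NMDA peak ran from 37852065 to 37852612, inside Diaph1, a formin gene for an actin-nucleating protein. Its strength was 39.8, rank 67 of 1684 (percentile 96.1). The resting peak at the same place, 37852010 to 37852749, reached 92.0, rank 279 of 12359 (percentile 97.8), and was the strongest of the window. The NMDA peak lay wholly within it, and their summits were 38 bp apart. The replicate columns read 30.7 and 9.05 in the NMDA list, a ratio of 3.40, and 45.0 and 47.0 in the resting list. The NMDA rank thus rests on 1 replicate column, with percentiles of 98.2 and 41.9 in the columns taken singly, while the resting columns gave 96.7 and 97.9.

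Further into Diaph1 came 3 resting peaks within 6.84 kb, with no NMDA peak. The first, at 37877167 to 37877917, scored 47.5 (24.0 and 23.5). The second, at 37879830 to 37880605, had 28.5 and unequal columns of 8.95 and 19.6. The third, at 37883461 to 37884005, had 43.6 (20.4 and 23.2). One more resting peak at Diaph1 covered its end with the higher coordinate, at 37935012 to 37935922, with a strength of 48.0 and columns of 32.6 and 15.5. These 4 peaks stood at percentiles 81.1, 45.2, 76.0 and 81.9 of the resting list. By column 1 alone the second stood at percentile 9.90 and by column 2 at 70.1, and the last at 90.6 and 54.4.

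The last 3 resting peaks lay 172 to 183 kb past the Pcdhg end, with no NMDA peak at any of them. One at 38013650 to 38014409 had a strength of 78.6 (33.1 and 45.5, percentile 96.0). A weak neighbour at 38014878 to 38015279 had 23.9 (13.04 and 10.8, percentile 27.8). The peak at 38024506 to 38026110 covered the end with the lower coordinate of the noncoding gene Gm30093 and had 59.8 (32.1 and 27.7, percentile 90.3). On the Pcdha side, the flank held a single resting peak, at 36739843 to 36740097 inside Tmco6. It was the weakest of the window, with 17.4 (8.36 and 9.04, percentile 0.761, or 8.02 and 14.6 by single columns).

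**Figure D3:**
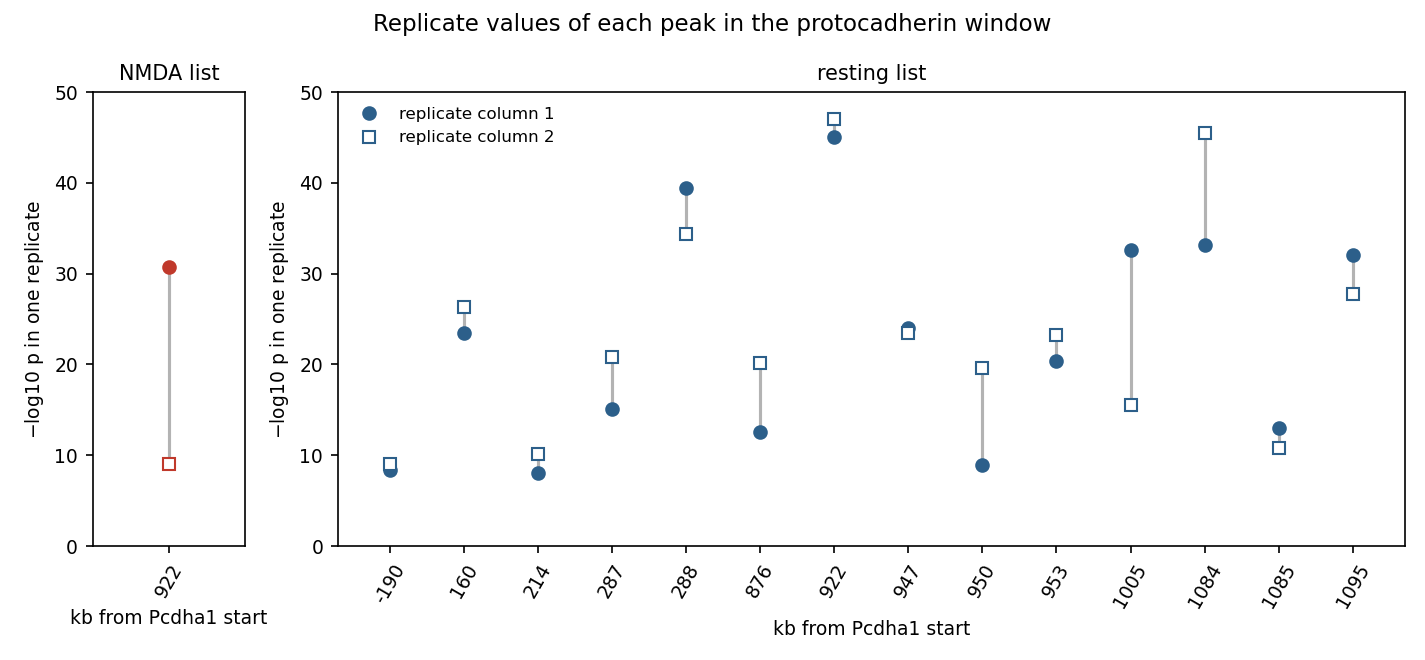
The −log10 p in each replicate column (filled circle, column 1; open square, column 2) for the NMDA peak (left) and the 14 resting peaks (right), placed by their distance in kb from the start of Pcdha1. Column 1 was the higher in the NMDA peak and in 5 of the 14 resting peaks, and the columns were 30.7 and 9.05 in the NMDA peak.

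By segment, the 912 kb span of the genes held 0 NMDA peaks and 5 resting peaks, 5.48 resting peaks per Mb. The downstream 200 kb held 1 NMDA peak and 8 resting peaks, 5 and 40 per Mb, and the upstream 200 kb held 0 and 1. From the first to the last peak of chromosome 18 the densities were 0.719 NMDA peaks and 4.90 resting peaks per Mb, and over all chromosomes 0.685 and 4.86 per Mb. The gene span was thus near the general resting density, and at the general NMDA density fewer than 1 NMDA peak would fall in a stretch of its length. With 1 list per condition, no test over samples of a difference in peak number was possible.

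Read over genes, 0 of 58 clustered protocadherins had an NMDA peak within 10 kb of the body, against 8.94% of the 21900 protein-coding genes of the table. For the resting list that count was 35 of 58, where 38.2% of the table's coding genes had such a peak. By family these were all 14 Pcdha, 0 of 22 Pcdhb and 21 of 22 Pcdhg genes, and they rested on 3 peaks. The nearest NMDA peak was just outside that limit, at 10.2 to 11.6 kb from every Pcdhg body, and within 50 kb the NMDA count was 22 of 58, against 16.9% of all protein-coding genes. The resting count within 50 kb was 37 of 58, against 62.3%. Gene bodies that met a resting peak were 34 of 58, against 25.4%, and those that met an NMDA peak 0 of 58, against 6.57%.

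At gene ends the count was lower than in the table as a whole. Far ends are shared, within 1240 bp for the Pcdha genes and 1384 bp for the Pcdhg genes. The counts below therefore take the same few sites many times. An NMDA peak lay within 1 kb of either end of 0 of 58 genes, against 5.39% of all protein-coding genes. A resting peak lay there for 3 of 58, against 15.9%, and these 3 were the C-type genes Pcdhac1, Pcdhac2 and Pcdhgc3. The 31 other Pcdha and Pcdhg genes had none within 1 kb of either end, although all 31 bodies met a resting peak. From body to nearest NMDA peak the median distance was 372 kb over the 58 genes and 343 kb over all protein-coding genes. For resting peaks it was 0 kb and 24.2 kb. Neighbouring genes share peaks and the bodies are long, with a median of 88.2 kb against 17.1 kb, so no test was made over genes. Variable exons of a group are close copies of each other, and how reads that map to several places were treated is not given in the sources used here, so an absent peak shows that none was listed there.

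Most of the window's peaks ranked above the median of their list. The single NMDA peak, at 39.8, was above its list median of 23.0. The resting peaks had strengths from 17.4 to 92.0 with a median of 45.5, against a median of 30.2 over all 12359 resting peaks, and 10 of the 14 were above that median. Within the span of the genes the median was 35.9 and in the downstream flank 47.7. Their widths were 255 to 2261 bp with a median of 756 bp, against 644 bp in the whole list.

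**Figure D4:**
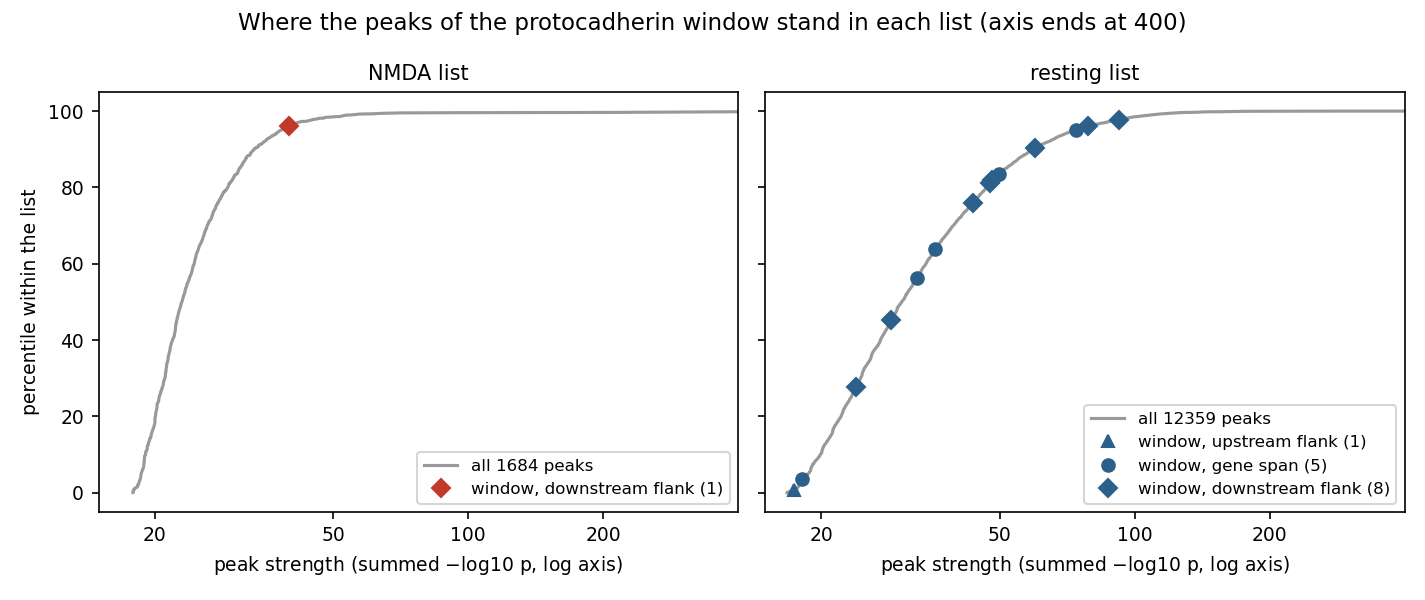
Percentile of each window peak within its own list against its strength (summed −log10 p, log axis), for the NMDA list (left) and the resting list (right), with the grey curve for all 1684 and 12359 peaks. The NMDA peak stands at percentile 96.1, and the resting peaks range from 0.761 to 97.8, with 4 of 14 above percentile 90.

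The single NMDA peak overlapped a resting peak, as did 75.8% of all NMDA peaks. In the other direction, an NMDA peak overlapped 1 of the 14 resting peaks by at least 1 bp (7.14%, exact Clopper-Pearson 95% interval 0.181 to 33.9%), against 10.7% of all resting peaks. The interval covers counting error over peaks only. It takes them as independent, although some were close neighbours, with gaps of 166 bp and 468 bp. In the strongest of 10 equal bins of the resting list 33.4% of peaks overlapped an NMDA peak, and of the 4 window peaks in that bin 1 did. The other 3 were those at 37217872, 38013650 and 38024506. The interval over the 14 peaks includes the share of the whole list, so a difference was not detectable at this number. When the resting list was held to its strongest 1684 peaks, the length of the NMDA list, the same 4 peaks were left in the window, and none of them lay within 10 kb of a member gene. At that length the resting count within 10 kb of members was 0 of 58, as in the NMDA list. The strongest of the 4 peaks lay just outside that limit, 10.1 kb from the nearest Pcdhg body. A share over all protein-coding genes is not given for the shortened list, so its counts have no general value beside them. A limit of 50 kb was planned for the full lists, and its use on the shortened list was added after seeing the data. Within 50 kb the counts were 22 of 58 in the NMDA list, all Pcdhg, and 37 of 58 in the shortened resting list. For the NMDA list the share of all protein-coding genes was 16.9%. The resting genes were all 14 Pcdha, 1 Pcdhb and all 22 Pcdhg.

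Genes picked for a link to protocadherin promoter choice, with general cohesin genes among them, were looked at next, by their own peaks. A role of each one in that choice was not tested. Of 14 such genes 5 had an NMDA peak within 10 kb and 6 a resting peak, 35.7% and 42.9%, with 4 having both. Over all protein-coding genes the shares were 8.94% and 38.2%, so the resting share was near the general one. The 14 genes had a median length of 61.0 kb, against 17.1 kb over all coding genes. The cohesin subunit gene Stag1 had the strongest, 41.8 in the NMDA list and 136 in the resting list. Nipbl, which encodes the cohesin loader, had 23.9 and 52.2, the ring subunit gene Smc3 had 19.1 and 40.1, and Ctcf itself 27.6 and 21.5. The histone methyltransferase gene Setdb1 had an NMDA peak alone (25.0). Pds5b, a regulator of cohesin release (35.5), and the DNA methyltransferase gene Dnmt3b (22.3) had resting peaks alone. The other 7, among them Smc1a, which encodes the protein mapped here, had no peak in either list.

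Kinases that bind clustered protocadherins gave a smaller set of 3 genes, with a median length of 196 kb against 17.1 kb over all coding genes. Of these, 2 had an NMDA peak within 10 kb and 2 a resting peak, against 8.94% and 38.2% of all protein-coding genes. Fyn had 25.5 in the NMDA list and 38.2 in the resting list. Ptk2, for focal adhesion kinase, had an NMDA peak alone (18.6), and its relative Ptk2b a resting peak alone (51.0).

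A pair of gene groups most like the clustered protocadherins was set beside them. Of 12 non-clustered protocadherins, single genes for related adhesion proteins, 4 had an NMDA peak within 10 kb (8.94% over all protein-coding genes) and 10 had a resting peak (38.2% over all). These 12 were long, with a median of 75.1 kb against 17.1 kb over all coding genes, and a longer body can meet more peaks. Pcdh1, beyond the Pcdhg genes on the same chromosome, had 2 peaks in each list, the strongest at 23.1 in the NMDA list and 61.6 in the resting list. The nearer of its NMDA peaks lay 369 kb past the last Pcdhg end. Pcdh8 had 22.2 and 80.1, Pcdh10 28.1 and 21.5, and Pcdh9 24.7 and 41.0 in the NMDA and resting lists. Pcdh7 (60.7), Pcdh15 (47.8), Pcdh18 (31.4) and Pcdh12 (24.4) had resting peaks alone. At gene ends, 3 of the 12 had an NMDA peak within 1 kb and 4 a resting peak, where the clustered genes had 0 and 3 of 58 and all protein-coding genes 5.39% and 15.9%. Of the 39 Hox genes, which also lie in clusters, 0 had an NMDA peak within 10 kb and 26 a resting peak, against the same 8.94% and 38.2%. A resting peak lay within 1 kb of an end of 5 of the 39, near the general 15.9%. The Hox genes were short, with a median length of 3.74 kb. Differences between these groups were not tested, since genes of a cluster share peaks.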

How the data were processed

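SMC1 ChIP and input samples (8 in all, 4 groups of 2) were grouped by title and treatment label. The labels call replicates biological without saying whether litters were separate. MACS2, BWA, SAMtools, Trimmomatic and FastQC are named with no version or setting, beside the builds mm10 and GRCm38.p6, per the submitters' processing notes. The deposited lists, 1 per condition, have 20 columns without names. Column 8 of the deposited lists is a −log10 p that equals the sum of both replicate columns on every line. The authors' score for reproducibility, the −log10 of the global IDR, corresponds to an IDR of at most 0.05. Columns carry no replicate number, and input values were not used here. Depth per library is unknown.

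Positions were made 1-based and joined to the RefSeq table, which has no strand, so a gene start is the lower coordinate, as the shared far ends of the Pcdha and of the Pcdhg genes show. Overlap was at least 1 bp, near meant 10 kb from the body, and a gene end meant 1 kb. Python 3.11.15, pandas 2.3.3, numpy 2.4.6 and scipy 1.17.1 were used, and overlap and distance steps were checked on simulated data. Members and lists were chosen with earlier results of these data known. Named are all window peaks, the members at or nearest to them, those with the shortest and longest distances, other genes over or next to a window peak, and at most 8 genes with a peak per comparison list. Pcdhgc4, Taf7, Slc25a2 and the absence at Smc1a were added after their values were seen. Not every gene so selected is printed, and single Hox genes are not. The motif search planned for members' promoters and printed sequences are left out.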

Additional observations from a re-analysis of the deposited data

How the results depend on the processing

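The window held 14 resting peaks, and 4 with the resting list held to the length of the NMDA list, 24 with flanks of 500 kb, and 5 with no flank, a setting chosen after seeing the data. For the NMDA list it held 1 peak, 3 with flanks of 500 kb and 0 with no flank. Members with a resting peak within 10 kb numbered 35 of 58, and 4 of 58 by the gene start alone. Over all 21900 protein-coding genes these counts were 8371 and 4824, with the start taken as the lower coordinate. With the list held to the NMDA length the members numbered 0 (37 within 50 kb at that length, added after seeing the data). At that length no share over all genes is given. Members with an NMDA peak within 10 kb numbered 0, and 22 within 50 kb, against 8.94% and 16.9% of all protein-coding genes. The median percentile of the window's resting peaks was 78.5 by the summed value and 73.7 to 76.3 by single replicate columns. Percentiles of the peaks at Pcdhgc3, at Pcdhac2, in Tmco6 and of a pair at Diaph1 moved by over 1.5 times with 1 replicate column alone, as did the NMDA peak. An IDR limit of 0.01 left 10 resting peaks and the 1 NMDA peak, and dropped the peak at Pcdhac2. The count of resting peaks overlapped by an NMDA peak was 1 with a reciprocal overlap of 50%, with a gap of up to 1 kb and with an IDR up to 0.01. No paired analysis was possible because each deposited list merges both replicates and its columns carry no replicate numbers. The number of peaks has no replicate error, and the unknown depth limits any reading of the missing NMDA peaks.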
